A study of Homo sapiens with 20 samples.

Results

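CCN1 (CYR61) and CCN2 (CTGF) are the genes most often used to read out YAP and TAZ activity, and the chromatin around both was described in 7 lists of accessible regions. All peaks that overlapped chromosome 1, positions 85996000 to 86100000 (CCN1), or chromosome 6, positions 132222000 to 132322000 (CCN2), in the hg19 (GRCh37) genome were taken, which is each gene with about 50 kb on each side. The 7 lists held 290 such peaks of 1407450 in all, 192 around CCN1 and 98 around CCN2.

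YAP and TAZ are coactivators that are held in the cytoplasm when the Hippo kinases phosphorylate them and that act in the nucleus when they are not phosphorylated. They do not bind DNA themselves and are brought to promoters and enhancers by the TEAD transcription factors, often beside AP-1. CCN1 and CCN2 encode secreted matricellular proteins that act on cell adhesion, migration and matrix formation, and both are textbook YAP/TAZ-TEAD targets.

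Accessible chromatin was mapped by ATAC-seq, in which a transposase inserts adapters into open DNA, in SW872, an established human liposarcoma line stably transduced with 1 of 7 vectors. EV is the empty vector. TAZ4SA and YAP5SA are full-length TAZ and YAP with Hippo target serines changed to alanine, so that they are held active. CAMTA1 and TFE3 are the full-length C-terminal partners, and TAZ-CAMTA1 and YAP-TFE3 are the fusion proteins of epithelioid hemangioendothelioma, a vascular sarcoma. In these fusions the N-terminal part of TAZ or YAP, with its TEAD binding domain, is joined to the C-terminal part of CAMTA1 or TFE3. All 7 groups share the SW872 background, which is not an endothelial line. The 20 libraries are 3 per vector except for TFE3, with 2; the third EV library is titled a redo, and the titles of the YAP-TFE3 libraries write the fusion as Yap5SA-TFE3. The files hold 1 peak list per vector. Replicate error could therefore not be had and no test between vectors was run; the depth behind each list is unknown.

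Each peak carries an area, which sums the peak caller's statistic along the peak and is 20 or more in every list, and a summit −log10 p. The lists differ in length, from 152702 peaks in TAZ4SA to 236893 in TAZ-CAMTA1, and in summed area. Peaks of the 7 lists that overlapped were merged into sites. Area ratios between lists were therefore scaled: the median log2 ratio over the 60372 sites that all 7 lists held was subtracted, so that 0 is the middle of those sites. That median, against EV, was -0.65 for TAZ4SA, 0.40 for YAP5SA, 1.05 for CAMTA1, 0.09 for TFE3, 1.26 for TAZ-CAMTA1 and 1.29 for YAP-TFE3. A site at least 2-fold higher or lower on the scaled values is called so below, beside the percentage of the 60372 sites that met the same rule. In bulk samples, a larger area can mean more cells open at a site or a site more open per cell, and the measurement cannot tell these apart.

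The sequence just before the CCN2 start is shown because it is a classic TEAD-bound promoter and because 2 of the 7 peak summits at this promoter fell close to its motifs. The 250 bases upstream of CCN2 in RefSeq (GRCh38.p14, chr6:131951373-131951622, minus strand) read as follows, 5′ to 3′, with TEAD motif matches in capitals.
CCN2: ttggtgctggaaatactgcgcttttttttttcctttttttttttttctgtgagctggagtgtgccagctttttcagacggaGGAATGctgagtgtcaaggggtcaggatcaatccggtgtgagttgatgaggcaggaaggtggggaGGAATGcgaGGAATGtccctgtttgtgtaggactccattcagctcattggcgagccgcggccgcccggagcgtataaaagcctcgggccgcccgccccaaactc
GGAATG, the TEAD hexamer, was searched on both strands as GGAATG or CATTCC. It occurred 3 times here, at 169 to 164, 104 to 99 and 95 to 90 bases before the start. Of 35116 RefSeq promoters of the same 250 bases, 11.9% held at least 1 such match and 0.0826% (29 promoters) held 3 or more. The AP-1 motif, TGACTCA or TGAGTCA, had 0 matches in these letters and occurred in 4.20% of all promoters. A match is a run of letters and not a measured binding site. The CCN1 promoter is not shown.

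Both loci were rich in peaks in every list. CCN1 had between 21 peaks (TAZ4SA) and 34 (CAMTA1), with 25 in EV, 30 in YAP5SA, 24 in TFE3, 30 in TAZ-CAMTA1 and 28 in YAP-TFE3. CCN2 had between 9 (TAZ4SA) and 19 (CAMTA1), with 11 in EV, 17 in YAP5SA, 10 in TFE3, 17 in TAZ-CAMTA1 and 15 in YAP-TFE3. Per 100 kb, the 2 loci together held between 2.77 times (YAP-TFE3) and 3.59 times (CAMTA1) as many peaks as the whole list did. This ratio was higher at CCN1, between 3.53 (YAP-TFE3) and 4.57 (TFE3), than at CCN2, between 1.82 (TAZ4SA) and 2.63 (CAMTA1). The covered share of a locus depends on both the number and the width of its peaks. Median peak width at the 2 loci was 300 bp in YAP5SA, 286 bp in TAZ4SA and 240 bp in TAZ-CAMTA1. In the other lists it lay between 162.5 bp (EV) and 198 bp (CAMTA1). YAP5SA peaks covered 16.7% of both loci, against 9.21% in EV, 9.88% in TAZ4SA, 12.9% in CAMTA1, 9.39% in TFE3, 13.1% in TAZ-CAMTA1 and 11.3% in YAP-TFE3. Over whole lists the order was different, with 2.80% in YAP5SA and more in CAMTA1 (3.17%), TAZ-CAMTA1 (3.67%) and YAP-TFE3 (3.37%). The 2 loci took 517 of every 1000000 units of area in the YAP5SA list and 470 in TAZ4SA, compared with 330 in EV, 351 in CAMTA1, 342 in TFE3, 288 in TAZ-CAMTA1 and 285 in YAP-TFE3. The lists of the active coactivators thus gave these loci a larger share of their area than the EV list, and the fusion lists a smaller one. Unscaled, the summed area of both loci was 43260.5 in EV, 43841.5 in TAZ4SA and 95331.5 in YAP5SA. It was 83245.8 in CAMTA1, 41650.2 in TFE3, 76861.8 in TAZ-CAMTA1 and 80915.2 in YAP-TFE3. The larger TAZ4SA share thus came with a smaller list total than in EV. The smaller fusion shares came with larger areas at the loci and larger list totals.

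**Figure D1:**
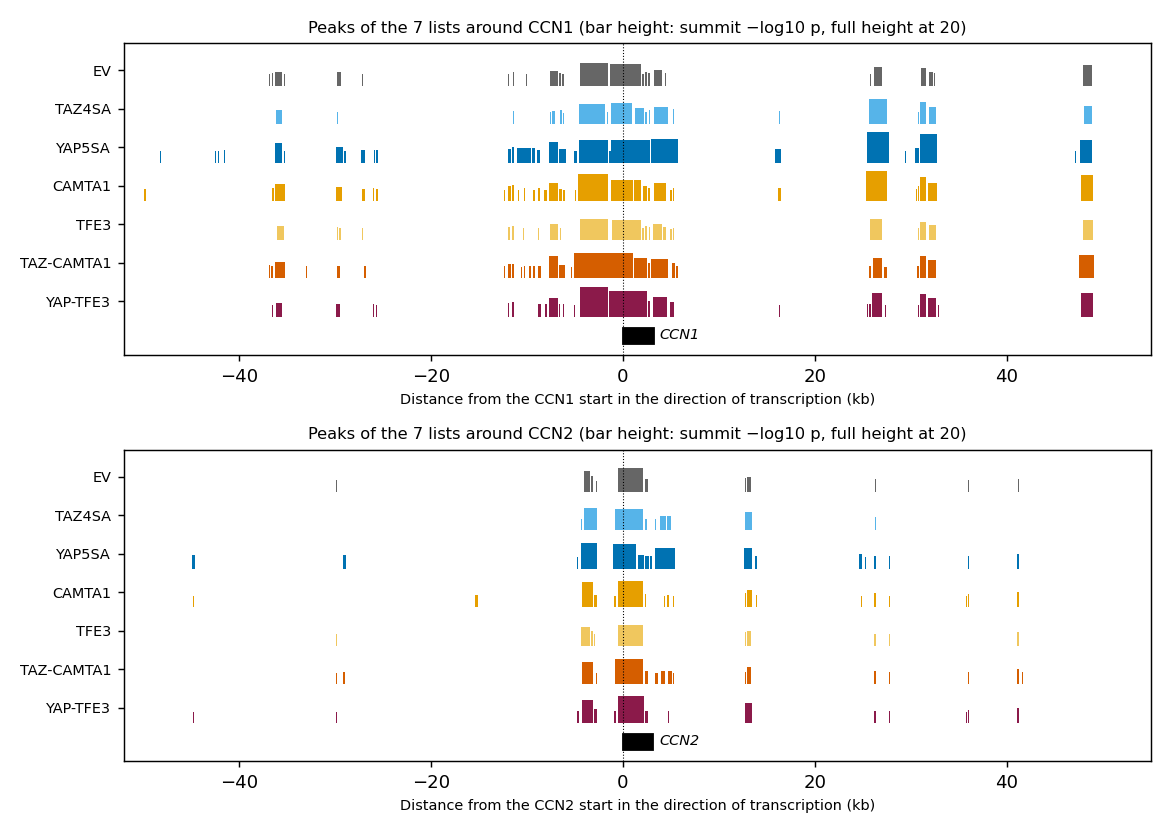
Peaks of each list plotted against the distance from the start of CCN1 (top) and CCN2 (bottom) in kb, in the direction of transcription; each bar is 1 peak, drawn at least 0.12 kb wide, and its height is the summit −log10 p. The same few places carry tall bars in all 7 lists, and YAP5SA has wider bars than the other lists just past the 3′ end of both genes.

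The share of peaks that overlapped no EV peak was near that of the whole list in YAP5SA and CAMTA1. It was below that of the whole list in TAZ4SA, TFE3, TAZ-CAMTA1 and YAP-TFE3. In TAZ4SA it was 7 of 30 peaks (23.3%, exact Clopper-Pearson 95% interval 9.93% to 42.3%), beside 33.9% of the whole list. In YAP5SA it was 23 of 47 (48.9%, 34.1% to 63.9%) beside 47.9%, and in CAMTA1 25 of 53 (47.2%, 33.3% to 61.4%) beside 46.8%. TFE3 had 7 of 34 (20.6%, 8.70% to 37.9%) beside 27.6%. TAZ-CAMTA1 had 20 of 47 (42.6%, 28.3% to 57.8%) beside 51.5%, and YAP-TFE3 17 of 43 (39.5%, 24.98% to 55.6%) beside 50.7%. The intervals are wide, cover counting error only and take neighbouring peaks as independent, and each holds the share of its whole list.

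Merging gave 54 sites, 34 around CCN1 and 20 around CCN2, of which 14 (25.9%) were held by all 7 lists; of all sites in the genome 16.2% were. A further 15 sites (27.8%, against 42.3% of all sites) were in 1 list alone, and their areas did not exceed 141. Of these, 9 were in YAP5SA (16.7% of the 54, against 10.5% of all sites) and 3 in TAZ-CAMTA1 (5.56% against 9.35%). CAMTA1 alone held 2 (3.70% against 5.65%) and YAP-TFE3 alone 1 (1.85% against 8.07%). No site (0 of 54) was in EV alone, against 3.33% of all sites. None (0) was in both fusions and nowhere else, a pattern of 3.15% of all sites. Of the 52 sites outside the promoters, 28 had their largest area in YAP5SA, 13 in CAMTA1, 10 in a fusion and 1, a small site far upstream of CCN2 with an area of 43.2, in TFE3. These areas are unscaled, and the 28 include the 9 sites held by YAP5SA alone. The same count was not taken over all sites, so it cannot be called particular to these loci.

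The promoters of both genes were among the strongest peaks of every list. Gene starts in hg19 were set by hand, since no annotation of that build was used here, and may be off by a few bases. In hg19 the CCN2 promoter site covered chromosome 6, positions 132270323 to 132273566, from 1.1 kb upstream of the start to 2.2 kb into the gene. Its area was 9868 in EV, 7728 in TAZ4SA, 10210 in YAP5SA, 14930 in CAMTA1, 7682 in TFE3, 13090 in TAZ-CAMTA1 and 15164 in YAP-TFE3. The peak over the start ranked above at least 98.8% of the peaks of its list in each of the 7 lists. CAMTA1 and both fusions had the largest areas and TFE3 and TAZ4SA the smallest.

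On scaled values the CCN2 promoter did not pass 2-fold against EV with any vector. The scaled log2 ratio to EV was 0.29 for TAZ4SA, -0.35 for YAP5SA, -0.45 for CAMTA1, -0.46 for TFE3, -0.85 for TAZ-CAMTA1 and -0.67 for YAP-TFE3. Without scaling the sign turned for TAZ4SA (-0.35), YAP5SA (0.05), CAMTA1 (0.60), TAZ-CAMTA1 (0.41) and YAP-TFE3 (0.62). When each ratio was instead set against sites of like strength, the tenth of the 60372 sites with the highest median area, the CCN2 promoter lay between -0.28 (TAZ-CAMTA1) and 0.11 (TAZ4SA). Set beside other strong sites, the CCN2 promoter thus differed from EV by at most 1.21-fold in the 6 lists.

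The CCN1 promoter lies 2398 bp from the start of DDAH1, a gene for an enzyme that breaks down methylarginines, which runs the other way. TAZ-CAMTA1 had a single peak of 6076 bp over both starts, and this merged the peaks of all lists into 1 site at chromosome 1, positions 86041382 to 86049247. The area of the site was 19704 in EV, 14789 in TAZ4SA, 25631 in YAP5SA, 30750 in CAMTA1, 17131 in TFE3, 32419 in TAZ-CAMTA1 and 35515 in YAP-TFE3. Scaled log2 ratios to EV were 0.23 for TAZ4SA, -0.02 for YAP5SA, -0.41 for CAMTA1, -0.30 for TFE3, -0.54 for TAZ-CAMTA1 and -0.44 for YAP-TFE3, none past 2-fold. Without scaling they were -0.41 for TAZ4SA, 0.38 for YAP5SA, 0.64 for CAMTA1, -0.20 for TFE3, 0.72 for TAZ-CAMTA1 and 0.85 for YAP-TFE3. Against the tenth of strongest sites they lay between 0.02 (YAP-TFE3) and 0.15 (YAP5SA), a difference of at most 1.11-fold. These ratios are for the whole site, with the DDAH1 side. For peaks within 1 kb of the CCN1 start, scaled log2 ratios to EV were 0.34 for TAZ4SA and 0.18 for YAP5SA. They were -0.78 for CAMTA1, -0.32 for TFE3 and -0.28 for YAP-TFE3. The peak over the start differed in width, from 2166 bp in TAZ4SA to 3991 bp in YAP5SA. TAZ-CAMTA1 had no separate peak there. The 2 sides of the site can be told apart in the other 6 lists, and the area on the CCN1 side was 0.785 of that on the DDAH1 side in EV, 1.22 in TAZ4SA, 0.922 in YAP5SA, 0.792 in CAMTA1, 0.766 in TFE3 and 0.906 in YAP-TFE3. TAZ4SA was the list in which the CCN1 side held the larger area. This ratio is within a list and needs no scaling. The highest summit −log10 p on the CCN1 side and on the DDAH1 side was 11.98 and 13.6 in EV, 11.7 and 11.3 in TAZ4SA, 13.3 and 13.3 in YAP5SA, 12.3 and 16.6 in CAMTA1, 10.5 and 11.6 in TFE3, and 16.02 and 18.98 in YAP-TFE3. The CCN1 summit was thus as high as its neighbour in TAZ4SA and YAP5SA and lower in the other 4 lists.

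Summits lay close together at CCN1 and apart at CCN2. On the CCN1 side, in the 6 lists with a peak of its own there, the summit lay 32 bp or less before the start in EV and CAMTA1, and within 34 bp after it in TAZ4SA, YAP5SA, TFE3 and YAP-TFE3. At CCN2 the summit of the peak over the start was 93 bp upstream of the start in TAZ4SA and 91 bp upstream in YAP5SA. In the other 5 lists it lay inside the gene, 742 bp past the start in EV, 734 bp in TFE3, 734 bp in TAZ-CAMTA1, 740 bp in YAP-TFE3 and 1306 bp in CAMTA1. Both upstream summits thus fell at the TEAD motif nearest to the gene, 95 to 90 bases before the RefSeq start. This position was looked at after its values were seen, it rests on 1 summit per list, and it compares a hand-set hg19 start with a RefSeq start in GRCh38.

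**Figure D2:**
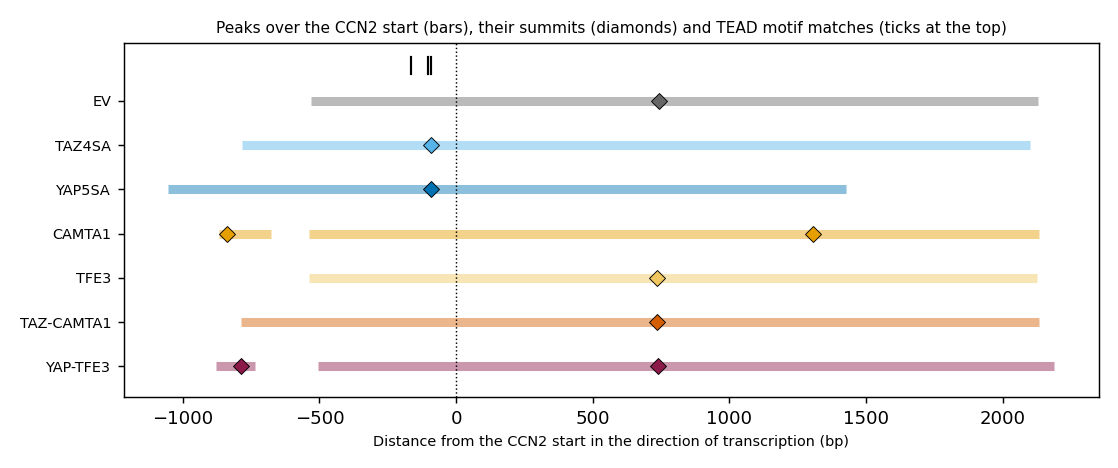
Peaks over the CCN2 start in each list (bars), with their summits (diamonds), against the distance from the start in bp; ticks at the top are the 3 TEAD motif matches. The TAZ4SA and YAP5SA summits lie 93 and 91 bp upstream, and those of the other 5 lists at 734 to 1306 bp inside the gene; the smaller upstream bars of CAMTA1 and YAP-TFE3 are separate peaks.

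Outside the promoters the lists differed more. The share of the area of the CCN1 locus that lay outside the promoter site was 33.8% in EV and 63.0% in YAP5SA, with 52.1% in TAZ4SA, 49.2% in CAMTA1, 44.0% in TFE3, 43.1% in TAZ-CAMTA1 and 40.1% in YAP-TFE3. At CCN2 it was 26.9% in EV and 60.8% in YAP5SA, with 40.5% in TAZ4SA, 34.2% in CAMTA1, 30.7% in TFE3, 34.3% in TAZ-CAMTA1 and 30.0% in YAP-TFE3. YAP5SA was highest and TAZ4SA second at both loci, EV was lowest at both, and the fusions lay 9.28 (TAZ-CAMTA1) and 6.30 (YAP-TFE3) percentage points above EV at CCN1 and 7.37 and 3.03 above it at CCN2. This share too is taken within a list, but strong and weak sites did not shift alike between lists. Set against the tenth of strongest sites, the CCN1 promoter site went from -0.54 to 0.03 in TAZ-CAMTA1 and from -0.44 to 0.02 in YAP-TFE3. In TAZ4SA it went the other way, from 0.23 to 0.05. The share was not taken around other strong promoters, so whether its differences are particular to these loci was not tested. The CCN1 promoter site also includes the DDAH1 side, which held 11037 of its area of 19704 in EV and 6656 of 14789 in TAZ4SA. The order and gaps of the lists at CCN1 could differ with that side counted as outside the promoter, and such shares are not given here. With 25 kb instead of about 50 kb on each side, the CCN1 share was lower by more than 1.5 times in EV (20.7%) and YAP-TFE3 (26.0%).

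**Figure D3:**
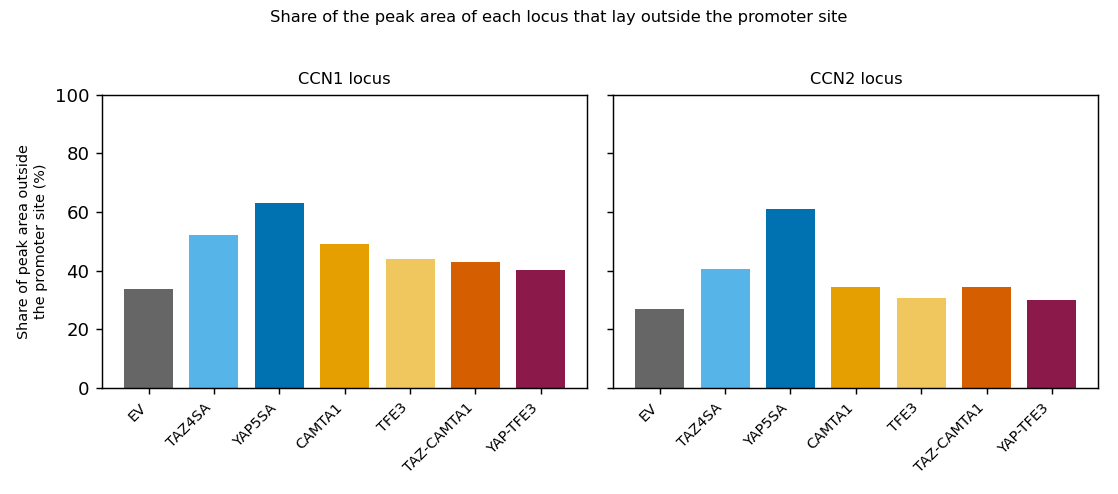
Share of the peak area of the CCN1 (left) and CCN2 (right) loci that lay outside the promoter site, in percent, 1 bar per list. The CCN1 promoter site includes the DDAH1 side. YAP5SA stands highest at both loci (63.0% and 60.8%), then TAZ4SA, and EV lowest (33.8% and 26.9%).

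All 7 lists held 12 distal sites, and YAP5SA was above EV on the scaled values at 12 of 12, at least 2-fold at 9, with 0 at least 2-fold lower. Of the 60372 sites, 22.6% were at least 2-fold higher in YAP5SA and 10.1% lower. TAZ4SA was at least 2-fold higher at 6 of 12 and lower at 2, beside 18.7% higher and 20.8% lower of all sites. The TAZ4SA count was 2 higher and 2 lower without scaling, with a median log2 ratio of 0.40 and 7 of 12 sites above 0, and 3 higher and 0 lower by the mean area per covered base. The median scaled log2 ratio over the 12 sites was 1.35 for YAP5SA and 1.04 for TAZ4SA, where the median over the 60372 sites is 0. Both comparisons use the same EV list.

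**Figure D4:**
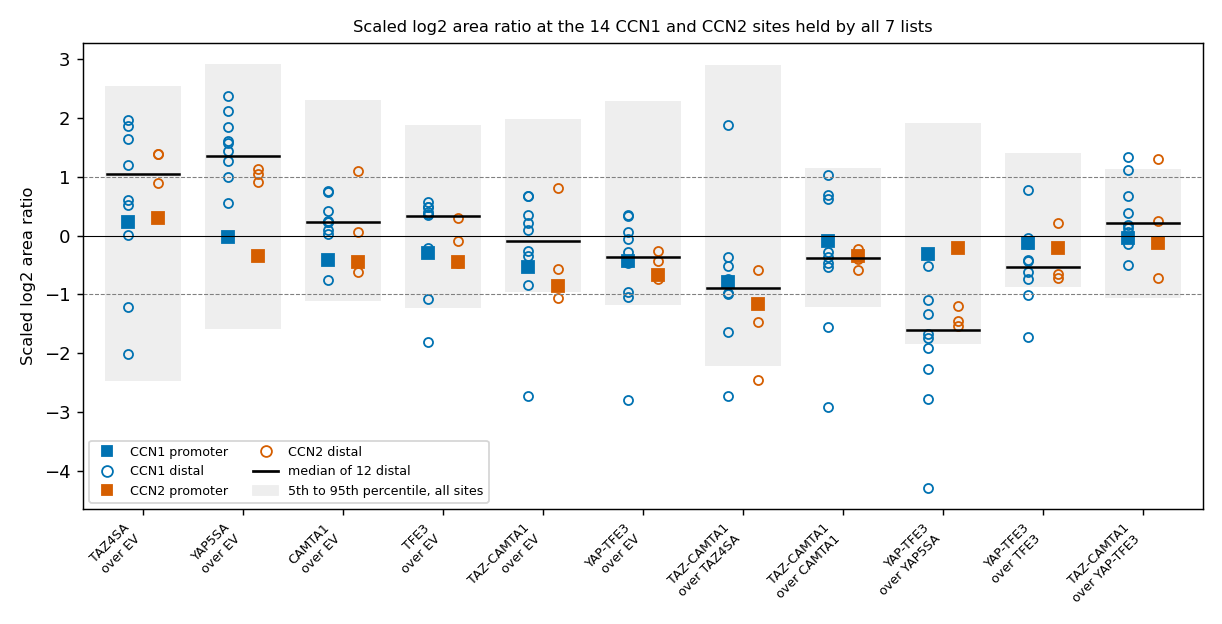
Scaled log2 area ratio (0 is the median of all sites held by the 7 lists) at the 14 CCN1 and CCN2 sites held by all lists, for each of 11 comparisons; filled squares are promoters, open circles distal sites, black lines the median of the 12 distal sites, grey bars the 5th to 95th percentile of all sites and dashed lines 2-fold. Distal sites lie above 0 for YAP5SA over EV and at least 2-fold below for YAP-TFE3 over YAP5SA at 11 of 12, while the promoters lie within 2-fold in all 11 comparisons but 1, CCN2 for TAZ-CAMTA1 over TAZ4SA.

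In CAMTA1, TFE3 and both fusions, at most 1 of the 12 distal sites was at least 2-fold higher than EV. CAMTA1 was at least 2-fold higher than EV at 1 distal site and lower at 0 (all sites: 19.0% and 6.12%), with a median of 0.24. TFE3 was higher at 0 and lower at 2 (14.8% and 6.83%), with a median of 0.33. TAZ-CAMTA1 was higher at 0 and lower at 2 (16.3% and 4.51%), with a median of -0.08, and YAP-TFE3 was higher at 0 and lower at 2 (18.6% and 6.45%), with a median of -0.36. The unscaled areas of these lists were larger than in EV at most of these sites, with at least 2-fold higher values at 10 of 12 in CAMTA1 (median log2 ratio 1.29), 0 in TFE3 (0.42), 6 in TAZ-CAMTA1 (1.18) and 6 in YAP-TFE3 (0.93). At the median distal site of CCN1 and CCN2, the fusion lists were thus larger than EV by no more than at the median of all sites held by the 7 lists.

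Each fusion can be set against its own coactivator without the EV list. YAP-TFE3 was at least 2-fold lower than YAP5SA at 11 of 12 distal sites and higher at 0, where 12.7% of all sites were lower and 14.4% higher. The median scaled log2 ratio was -1.60, and all 12 were below 0. Even unscaled, 4 of the 12 were at least 2-fold smaller in YAP-TFE3 although its list had the larger summed area. The 2 promoters were not among the sites called, at -0.31 (CCN1) and -0.21 (CCN2), or 0.47 and 0.57 without scaling.

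TAZ-CAMTA1 was at least 2-fold lower than TAZ4SA at 4 of 12 distal sites and higher at 1, where 18.4% of all sites were lower and 26.7% higher, with a median of -0.89. The CCN2 promoter was also lower, at -1.16, the promoter value past 2-fold in this comparison, but it was 0.76 without scaling and -0.39 against the tenth of strongest sites. The CCN1 promoter was at -0.79, or 1.13 without scaling. Without scaling none (0) of the distal sites was at least 2-fold lower and 6 were higher.

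Over all sites held by the 7 lists, the fusions differed less from their C-terminal partners than from their coactivators. The standard deviation of the scaled log2 ratio was 0.75 for TAZ-CAMTA1 over CAMTA1 and 0.73 for YAP-TFE3 over TFE3. It was 1.55 for TAZ-CAMTA1 over TAZ4SA and 1.14 for YAP-TFE3 over YAP5SA. Fewer calls against the partners are thus not particular to these loci. TAZ-CAMTA1 was at least 2-fold higher than CAMTA1 at 1 distal site and lower at 2 (all sites: 6.48% and 7.09%), with a median of -0.38. YAP-TFE3 was higher than TFE3 at 0 and lower at 2 (8.82% and 3.91%), with a median of -0.53. Between the fusions, TAZ-CAMTA1 was higher than YAP-TFE3 at 3 distal sites and lower at 0 (6.28% and 5.56%), with a median of 0.21. The promoters were within 2-fold in these 3 comparisons, between -0.35 and -0.04. Without scaling, YAP-TFE3 over TFE3 came to 1.05 at the CCN1 promoter and 0.98 at that of CCN2, and TAZ-CAMTA1 over CAMTA1 to 0.08 at that of CCN1.

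Among the distal sites with the largest areas, 3 around CCN1 were at least 2-fold above EV in both TAZ4SA and YAP5SA. A site 26.6 kb downstream of the start (chromosome 1, positions 86071765 to 86074208) had an area of 2562 in EV, 5973 in TAZ4SA, 10021 in YAP5SA, 8886 in CAMTA1, 3495 in TFE3, 3409 in TAZ-CAMTA1 and 5153 in YAP-TFE3. Its 7 summits lay within 24 bp of each other. The scaled ratio to EV was 3.65-fold in TAZ4SA, 2.97-fold in YAP5SA and 1.67-fold in CAMTA1, and the value in TAZ-CAMTA1 was 0.56 of that in EV. YAP5SA, CAMTA1 and TAZ4SA were thus the 3 highest, and TAZ-CAMTA1 had 0.15 of the scaled area of TAZ4SA.

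A site 31.4 kb downstream of the CCN1 start (positions 86077440 to 86079171) had an area of 1595 in EV, 3975 in TAZ4SA, 9110 in YAP5SA, 5576 in CAMTA1, 2383 in TFE3, 4837 in TAZ-CAMTA1 and 4914 in YAP-TFE3. Its 7 summits lay within 34 bp. EV was lowest and YAP5SA highest, at 4.33-fold the scaled EV value, with TAZ4SA at 3.90-fold. A neighbouring site 30.8 kb downstream was small and was held by every list but EV, a pattern of 1.22% of all sites, with areas from 35.6 in TFE3 to 363 in CAMTA1.

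The site at the 3′ end of CCN1 (positions 86049355 to 86052238, 2.9 to 5.8 kb past the start) had an area of 1420 in EV, 2817 in TAZ4SA, 9720 in YAP5SA, 2994 in CAMTA1, 2000 in TFE3, 5423 in TAZ-CAMTA1 and 4415 in YAP-TFE3. In YAP5SA its scaled value was 5.19-fold that in EV, the largest ratio to EV among the 14 sites held by all lists, and in TAZ4SA 3.11-fold. Relative to the promoter site of the same list, its area was 37.9% in YAP5SA, 19.0% in TAZ4SA, 16.7% in TAZ-CAMTA1, 12.4% in YAP-TFE3, 11.7% in TFE3, 9.74% in CAMTA1 and 7.20% in EV.

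The other large CCN1 sites varied less or in another order. At 48.4 kb downstream (positions 86094042 to 86095536) the area was 2229 in EV, 2031 in TAZ4SA, 4328 in YAP5SA, 5492 in CAMTA1, 3083 in TFE3, 4431 in TAZ-CAMTA1 and 5211 in YAP-TFE3, and no scaled ratio passed 2-fold. At 7.1 kb upstream (positions 86038724 to 86039673) it was 754 in EV, 207 in TAZ4SA, 2397 in YAP5SA, 1669 in CAMTA1, 1130 in TFE3, 2868 in TAZ-CAMTA1 and 1920 in YAP-TFE3. There TAZ4SA was lowest, at 0.43 of EV on the scaled values, and TAZ-CAMTA1 was 3.66-fold above TAZ4SA, the site behind the single higher call in that comparison. YAP5SA was at 2.41-fold the scaled EV value at this site, and YAP-TFE3 had 0.47 of YAP5SA. A small site 8.7 kb upstream was in every list but EV and TAZ4SA, with areas from 24.3 in TFE3 to 304 in CAMTA1.

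1 further CCN1 site, 29.7 kb upstream, was chosen after its values were seen, since 4 of the 6 vectors were at least 2-fold below EV there on the scaled values. Its area was 312 in EV, 49.5 in TAZ4SA, 1248 in YAP5SA, 762 in CAMTA1, 158 in TFE3, 113 in TAZ-CAMTA1 and 110 in YAP-TFE3. TAZ4SA had the smallest area. Scaled, TAZ4SA had 0.25, TFE3 0.48, TAZ-CAMTA1 0.15 and YAP-TFE3 0.14 of the EV value, while CAMTA1 was at 1.18-fold and YAP5SA at 3.04-fold.

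Around CCN2 the site that differed most lay just past the 3′ end of the gene, 3.3 to 5.5 kb from the start (chromosome 6, positions 132267038 to 132269173). It had no peak in EV or TFE3, and its area was 5397 in YAP5SA, 805 in TAZ4SA, 714 in TAZ-CAMTA1, 229 in CAMTA1 and 105 in YAP-TFE3. In YAP5SA it reached 52.9% of the area of the CCN2 promoter site of that list, in TAZ4SA 10.4% and in TAZ-CAMTA1 5.46%. This combination of 5 lists was found at 0.535% of all sites. A list without a peak had no area of 20 or more there, which is not the same as closed chromatin. YAP5SA was thus far above every other list at this site, including both fusions.

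The CCN2 site 3.6 kb upstream of the start (positions 132275184 to 132276861) was held by all lists, with summits within 28 bp. Its area was 2104 in EV, 2494 in TAZ4SA, 5188 in YAP5SA, 4566 in CAMTA1, 2115 in TFE3, 3411 in TAZ-CAMTA1 and 3071 in YAP-TFE3. Scaled, TAZ4SA was 1.86-fold and YAP5SA 1.87-fold EV, below 2-fold, while YAP-TFE3 had 0.35 of YAP5SA and TAZ-CAMTA1 0.36 of TAZ4SA. On the scaled values the site was thus at least 2-fold lower in each fusion than in its coactivator, and within 2-fold of EV in every list. Unscaled, TAZ-CAMTA1 was 1.37-fold TAZ4SA and YAP-TFE3 0.59 of YAP5SA, while YAP5SA was 2.47-fold and CAMTA1 2.17-fold EV.

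The CCN2 site 13.2 kb downstream (positions 132259003 to 132259833) had an area of 1101 in EV, 1833 in TAZ4SA, 3005 in YAP5SA, 1493 in CAMTA1, 852 in TFE3, 1267 in TAZ-CAMTA1 and 2235 in YAP-TFE3. TAZ4SA was 2.61-fold and YAP5SA 2.07-fold EV on the scaled values, and TAZ-CAMTA1 had 0.48 of EV and 0.18 of TAZ4SA. The remaining CCN2 sites were small. A site 41.2 kb downstream was missing from TAZ4SA alone, with areas from 55.5 in EV to 468 in CAMTA1. A site inside the gene, 2.5 kb past the start, was missing from TFE3 alone, with areas from 23.8 in TAZ4SA to 391 in YAP5SA. A site 27.8 kb downstream was missing from EV and TAZ4SA, with areas from 31.1 in CAMTA1 to 138 in TAZ-CAMTA1.

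**Figure D5:**
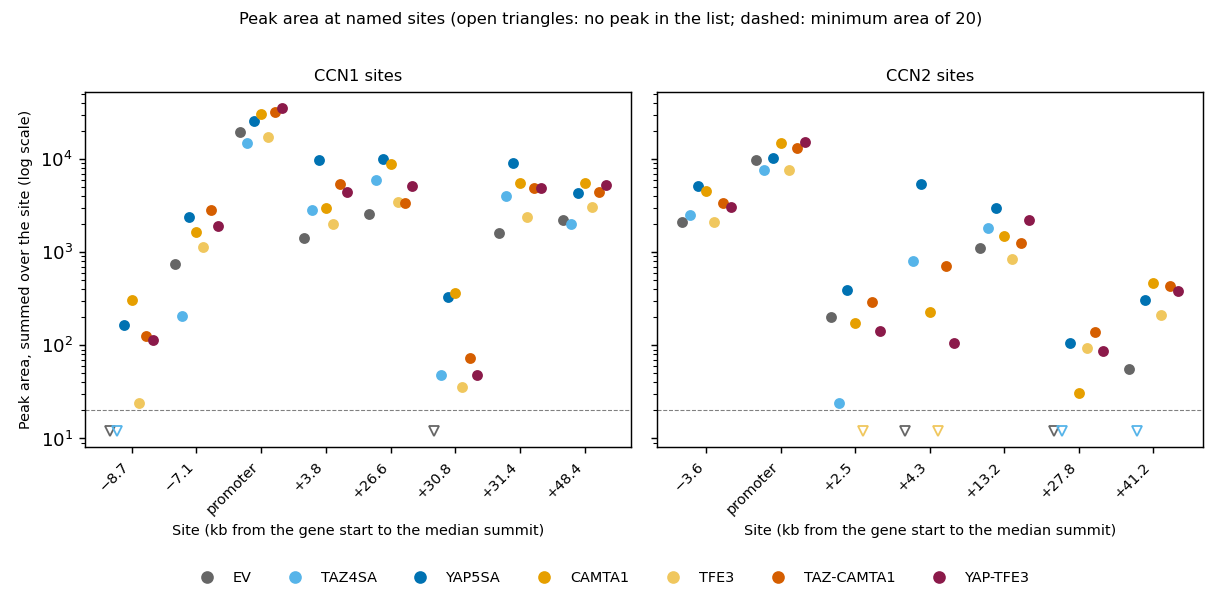
Area of each promoter and each named distal site of CCN1 (left) and CCN2 (right) in the 7 lists, on a log scale, ordered by distance from the gene start in kb; open triangles mark lists with no peak and the dashed line the smallest area of 20. At the CCN2 site +4.3 kb, YAP5SA stands at 5397 and EV and TFE3 have no peak, while the areas of the promoter sites span 2.40-fold (CCN1) and 1.97-fold (CCN2) from the lowest list to the highest.

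In all, 4 sites were in both fusions and not in EV (7.41% of the 54, against 14.05% of all sites), and each was held by at least 1 further list. No site (0) with an EV area of 100 or more was missing from a fusion. YAP5SA and CAMTA1 held all 4 of these sites.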

How the data were processed

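ATAC-seq libraries of SW872 cells were trimmed with NGmerge, aligned to GRCh37 with BWA-MEM and called with Genrich in ATAC mode by the authors, without PCR duplicates, blacklisted regions and the mitochondrial genome. Per the labels, the submitters' processing notes also name mm8 and Bowtie 0.12.2. The positions (chromosome 1 reaching 249240671) are those of hg19, which was used. The methods describe calling per replicate, but the authors deposited 1 list per vector. How libraries were combined is not given in the sources used here.

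The deposited signal column is the area under the caller's statistic, and the deposited −log10 p that of the summit. Areas of weak and strong sites need not change alike with depth. Peaks overlapping by 1 bp or more were merged into sites, areas summed per list and site, and log2 ratios centred on sites of all 7 lists. Sites within 1000 bp of the gene start are promoter sites. Scaling, summit −log10 p cut-offs of 4 and 5, equal list lengths, 25 kb windows and 50% overlap were varied. Scripts (Python 3.11.15, numpy 2.4.6, scipy 1.17.1, matplotlib 3.10.9) were tested on simulated lists.

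Sites described singly were the promoters, the 5 distal sites per locus with the highest median area, distal sites of both fusions but not EV, and EV sites with an area of 100 or more missing from a fusion. Genes of like pattern were not sought, as no GRCh37 annotation was used here. The identity of the line and the transduced proteins was not checked from these lists. The members, lists and rules were chosen with earlier results of these data known.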

Additional observations from a re-analysis of the deposited data

How the results depend on the processing

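Of the settings tried, leaving ratios unscaled moved most results. The promoter log2 ratios to EV became -0.41 (TAZ4SA), 0.64 (CAMTA1), 0.72 (TAZ-CAMTA1) and 0.85 (YAP-TFE3) at CCN1 and -0.35, 0.60, 0.41 and 0.62 at CCN2, and TAZ-CAMTA1 over TAZ4SA at CCN2 turned from -1.16 to 0.76. Distal sites at least 2-fold higher than EV became 2 (TAZ4SA), 10 (CAMTA1), 6 (TAZ-CAMTA1) and 6 (YAP-TFE3), and lower 1 each in TFE3, TAZ-CAMTA1 and YAP-TFE3. TAZ-CAMTA1 over TAZ4SA became 6 higher and 0 lower, and YAP-TFE3 over YAP5SA 4 lower. These changes follow from the median shift that scaling removes. YAP5SA stayed above EV at 12 of 12 distal sites under each setting, with between 6 and 11 at least 2-fold higher.

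The following settings for distal sites, and all settings for the share of area outside the promoter, were chosen after seeing the data. With the mean area per base, TAZ4SA had 3 higher and 0 lower, TFE3 1 and 0, TAZ-CAMTA1 1 lower, and YAP-TFE3 over YAP5SA 6 lower. Scaled by summed area, TFE3, TAZ-CAMTA1 and YAP-TFE3 had 1 lower each and TAZ-CAMTA1 1 higher. Scaled within 10 classes of median area, CAMTA1 had 2 higher and 1 lower. The share of area outside the CCN1 promoter became 20.7% (EV) and 26.0% (YAP-TFE3) in 25 kb windows.

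In those windows both loci held 23 (EV), 27 (YAP5SA) and 28 (YAP-TFE3) peaks, 11 each without an EV peak in YAP5SA and YAP-TFE3, and peaks covered 13.9% (EV), 16.2% (TAZ4SA), 25.1% (YAP5SA), 14.4% (TFE3), 19.9% (TAZ-CAMTA1) and 17.3% (YAP-TFE3). With a summit −log10 p of 5 or more the peaks numbered 18 (EV), 28 (YAP5SA), 28 (CAMTA1), 19 (TFE3), 22 (TAZ-CAMTA1) and 20 (YAP-TFE3), and those without an EV peak 14 (YAP5SA), 11 (CAMTA1), 3 (TFE3), 9 (TAZ-CAMTA1) and 7 (YAP-TFE3). With 4 or more, CAMTA1 had 16. At equal list lengths by area the latter were 15 (YAP5SA), 12 (CAMTA1), 12 (TAZ-CAMTA1) and 9 (YAP-TFE3), and by −log10 p 13 (CAMTA1), 12 (TAZ-CAMTA1) and 11 (YAP-TFE3). With 50% overlap they were 16 (TAZ4SA) and 11 (TFE3).

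Smaller windows, higher cut-offs and shorter lists remove peaks by construction, and the cause of the other changes was not tested. No paired analysis was possible because each vector has 1 list. Leaving out libraries was not run for the same reason. The value within 1 kb of the CCN1 start could not be given for TAZ-CAMTA1, whose peak spans both starts.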
